A study of Mus musculus with 4 samples.

Results

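Microglia were examined for 10 genes of the inhibitory receptor system: the Siglecs Siglech, Siglece, Cd33 and Cd22, the immunoglobulin-like receptors Lilrb4a, Pirb and Cd300a, the checkpoint receptors Lag3 and Havcr2, and the phosphatase gene Ptpn6. They were taken by symbol from the 19737 genes of the deposited matrix, and all 10 passed the filter on low counts that left 14058 genes for testing. A single-cell RNA sequencing study of sorted mouse brain myeloid cells asked how a TREM2-activating antibody changes microglia with and without amyloid pathology. It held 20 mice in 5 groups of 4, sampled 1 day after an intravenous dose of 10 mg/kg.

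All mice carried TfRmu/hu, in which the apical domain of the human transferrin receptor replaces that of the mouse receptor at its own locus. Mice of genotype WT;TfRmu/hu, called WT from here on, were dosed with either ATV:ISO or ATV:4D9. Mice of genotype AppSAA;TfRmu/hu, called AppSAA, have familial Alzheimer mutations knocked into App and form amyloid plaques, and they were dosed with 1 of 3 antibodies, ATV:ISO, 4D9 or ATV:4D9. 4D9 is an antibody to mouse TREM2, and ATV marks an Fc domain that binds the human transferrin receptor and carries the antibody across the blood-brain barrier, which the knock-in makes possible in mice. ATV:ISO is the isotype control with that Fc domain. The deposited name of that arm is ATV-DNP02, which was read as ATV:ISO although no deposited text says so, and 4D9 was not given to WT mice. An age of 8 months is stated for males of the AppSAA line and may or may not cover the WT mice, 1 of the 20 mice being recorded as female. For WT;TfRmu/hu mice over the whole study, mixed sex and a range of ages up to 8 months are stated. The sources differ on the sort (CD11b+, with or without CD45) and on the tissue (cortex, with or without hippocampus).

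Siglecs bind sialic acids on glycoproteins and glycolipids, and most carry tyrosine motifs in their tails (ITIMs) that are phosphorylated when the receptor is engaged. The phosphatase SHP-1, encoded by Ptpn6, docks on these motifs and removes phosphate from kinases and adaptors of activating receptors such as TREM2 with its partner DAP12. In microglia, Siglec-H is a surface marker that lacks an ITIM and itself pairs with DAP12, and CD33 is known from human genetics as a locus of Alzheimer risk.

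In all, 74758 cells held 2193 to 6126 cells per mouse and 17150296 to 102446549 UMIs (unique molecular identifiers, the counted transcripts) per mouse. Markers of microglia (7 genes, Siglech among them) were present in every mouse, with a summed level of 21956 to 23053 CPM (UMIs scaled to the total UMIs of the mouse, as counts per 1e+06) in WT mice given ATV:ISO, 14650.1 to 15945 given ATV:4D9, and 14559.9 to 16991, 15652 to 16632 and 11580.1 to 13206 CPM in AppSAA mice given ATV:ISO, 4D9 and ATV:4D9. In all, 16 cells held more UMIs of another cell type's markers than of the microglial ones. Some members are better known from lymphocytes, and the B cell marker Pax5 was at 0 in all mice. The summed B cell level, carried by Ighm and Cd79b, was 275.9 to 304 CPM in WT mice given ATV:ISO, 203 to 216 given ATV:4D9, and 229.98 to 269, 242 to 257 and 177 to 205 CPM in AppSAA mice given ATV:ISO, 4D9 and ATV:4D9. For 6 T and NK cell markers, none of which was at 0 in every mouse, the sums in the same order were 0.244 to 0.768, 0.154 to 0.705, 1.44 to 1.88, 1.45 to 2.42 and 0.233 to 0.702 CPM. Of 6 markers of plasmacytoid dendritic cells, the other cells known for Siglech, 5 were in the matrix, and their sum, carried by Irf8 and Cox6a2, was 591 to 665, 429 to 488, 681 to 775, 665 to 789 and 491 to 605 CPM in the same order, with Ly6d at a median of 0. The 4 endothelial markers, carried by Flt1 and Pecam1, summed to 18.3 to 24.5, 9.54 to 13.1, 37.5 to 52.4, 38.98 to 49.4 and 13.2 to 26.2 CPM. For 5 monocyte markers the sums were 4.93 to 8.27, 6.22 to 7.38, 4.09 to 10.3, 5.61 to 8.86 and 9.998 to 13.7 CPM, those of AppSAA mice given ATV:4D9 lying above those given 4D9 without overlap. The sum of 4 oligodendrocyte markers was 57.8 to 71.02 CPM in WT mice given ATV:ISO and 34.1 to 46.3 in those given ATV:4D9, and that of 3 neuron markers 1.12 to 1.77 and 0.479 to 0.857 CPM. The part of these markers in the results on the 10 genes was not tested. There were 543 barcodes found in more than 1 pool, on 1.457% of cells.

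The genes lie on 4 chromosomes of the mouse genome (build GRCm38, which is mm10, annotation GENCODE vM21). On chromosome 7 are Siglech, ENSMUSG00000051504, chr7:55768178-55778925 (plus strand), Siglece, ENSMUSG00000030474, chr7:43651070-43660161 (minus strand) and Cd33, ENSMUSG00000004609, chr7:43524216-43544428 (minus strand), with 106641 bases between Siglece and Cd33. The same chromosome holds Cd22, ENSMUSG00000030577, chr7:30865402-30880342 (minus strand) and Pirb, ENSMUSG00000058818, chr7:3711409-3720391 (minus strand). Chromosome 6 holds Lag3, ENSMUSG00000030124, chr6:124904361-124911705 (minus strand) and Ptpn6, ENSMUSG00000004266, chr6:124720707-124738714 (minus strand), chromosome 11 Havcr2, ENSMUSG00000020399, chr11:46454935-46481255 (plus strand) and Cd300a, ENSMUSG00000034652, chr11:114890041-114904654 (plus strand), and chromosome 10 Lilrb4a, ENSMUSG00000112148, chr10:51490956-51496611 (plus strand). Annotated antisense genes overlap Cd22, Ptpn6 and Lilrb4a, and the protein-coding gene Gm49339 overlaps Lilrb4a and its neighbor Lilr4b on the same strand.

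The Lilrb4a counts are uncertain. Lilr4b, a close copy, ends 4252 bases from it, and 40.6% of the 30-base windows in the last 500 bases of Lilrb4a transcripts also occur in Lilr4b transcripts, where this chemistry reads. Windows as long as a read were not compared, and how reads that match both genes were counted was not tested. Sequence sharing was not computed for the other 9 genes.

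For 8 of the 10 genes the RefSeq promoter table (GRCm38.p6) held the 300 bases from 250 before to 50 after the start site. That start site is not always the end of the annotated gene, since it lies 11257 bases inside the Cd33 locus given above and 1314 bases inside that of Cd22, at the start of another GENCODE transcript in both cases. For the other 6 genes it lies within 9 bases of the gene's 5′ end. Those of Siglech, Cd33, Pirb and Cd300a are shown because these genes were lower in each of the first 3 comparisons below. Capitals mark GAGGAA, the core letters of many PU.1 sites, or its reverse complement TTCCTC, PU.1 being an ETS factor of the myeloid lineage.
Siglech (chr7:55767934-55768233, plus strand): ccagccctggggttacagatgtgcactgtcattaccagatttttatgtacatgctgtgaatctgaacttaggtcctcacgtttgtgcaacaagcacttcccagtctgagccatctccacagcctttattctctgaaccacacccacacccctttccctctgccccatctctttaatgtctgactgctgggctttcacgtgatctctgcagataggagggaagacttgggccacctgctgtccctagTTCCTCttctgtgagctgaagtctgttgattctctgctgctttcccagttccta
Cd33 (chr7:43533122-43533421, minus strand): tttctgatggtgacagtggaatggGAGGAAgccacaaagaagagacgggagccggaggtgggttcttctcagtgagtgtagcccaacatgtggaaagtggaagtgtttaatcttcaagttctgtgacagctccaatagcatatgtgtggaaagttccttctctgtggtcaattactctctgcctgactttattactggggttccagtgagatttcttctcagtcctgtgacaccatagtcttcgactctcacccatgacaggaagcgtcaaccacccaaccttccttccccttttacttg
Pirb (chr7:3720333-3720632, minus strand): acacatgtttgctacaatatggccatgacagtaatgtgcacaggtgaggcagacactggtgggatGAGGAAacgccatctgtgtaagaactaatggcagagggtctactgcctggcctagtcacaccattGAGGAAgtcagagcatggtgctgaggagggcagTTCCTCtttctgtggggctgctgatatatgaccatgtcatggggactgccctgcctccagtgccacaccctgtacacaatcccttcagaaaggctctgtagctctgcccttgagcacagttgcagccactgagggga
Cd300a (chr11:114889791-114890090, plus strand): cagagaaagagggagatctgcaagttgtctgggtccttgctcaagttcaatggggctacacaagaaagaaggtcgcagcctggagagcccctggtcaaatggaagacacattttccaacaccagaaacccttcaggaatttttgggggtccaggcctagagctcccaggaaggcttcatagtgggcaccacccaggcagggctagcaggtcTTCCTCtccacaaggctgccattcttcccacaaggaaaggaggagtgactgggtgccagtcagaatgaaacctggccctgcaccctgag
GAGGAA, searched on both strands, was found in 6 of the 8 promoters, 3 times in Pirb and in Siglece and once in Siglech, Cd33, Cd300a and Havcr2. Of all 27025 promoters of this length, 28.3% held it. CACGTG, the E-box read by TFE and MITF factors, was found in Siglech alone among the 8 (7.24% of all promoters), and TATAAA (14.2%) in none of them. Both were searched on both strands, and the CACGTG of Siglech does not overlap its GAGGAA match. None of these letters was tested for binding.

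**Figure D1:**
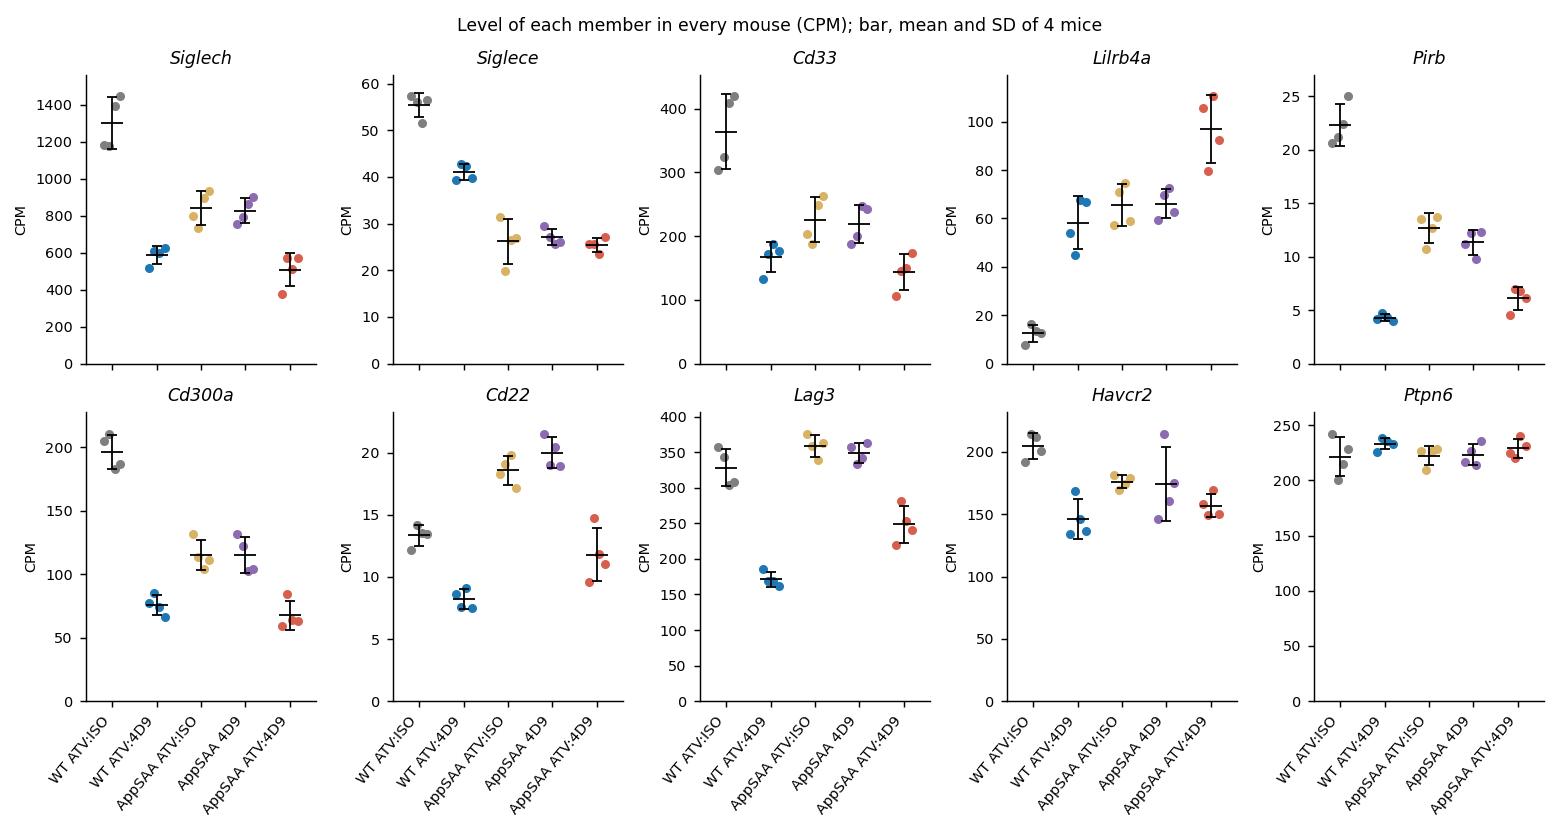
Level of the 10 genes in each of 20 mice, in CPM on a linear axis from 0. Each point is a mouse, and the bar gives mean and SD of 4 mice of a group. Lilrb4a rises from WT mice given ATV:ISO to all other groups, Pirb falls, and Ptpn6 stays within 200.4 to 242 CPM.

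The first comparison asked what ATV:4D9 does in mice without amyloid pathology. In WT mice, ATV:4D9 lowered 8 of the 10 genes and raised Lilrb4a and Ptpn6 against ATV:ISO (edgeR, Benjamini-Hochberg adjusted p under 0.05 over all genes). All 10 were called, while 63.3% of all tested genes were called, 30.8% higher and 32.5% lower, so that the number called is not particular to these genes. The median log2 fold change of the 10 was -0.70, and that of all tested genes was -0.051. Each fold change is a share relative to all other transcripts, and mice given ATV:4D9 had more UMIs per cell (14932 to 18783 on average in a mouse) than those given ATV:ISO (7820.5 to 9475). In UMIs per cell, which were not tested, 4 genes (Siglece, Lilrb4a, Havcr2 and Ptpn6) were higher without overlap of the groups, as were 62.1% of all genes. Only Pirb and Cd300a were lower without overlap, against 1.96% of all genes, and the other 4 overlapped.

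The second comparison set AppSAA against WT mice under the control antibody. It is a difference of genotype, and whether the genotypes also differed in age is not clear from the sources. Under ATV:ISO, AppSAA mice had higher Lilrb4a, Cd22 and Lag3 and lower Siglech, Siglece, Cd33, Pirb and Cd300a than WT mice given ATV:ISO, while Havcr2 and Ptpn6 were not called. Thus 8 of 10 genes were called, against 28.2% of all tested genes (14.4% higher, 13.7% lower). These AppSAA mice had more UMIs per cell (10392 to 12226 on average in a mouse) than the WT mice (7820.5 to 9475). In UMIs per cell, Lilrb4a, Cd22, Lag3 and Ptpn6 were higher without overlap (25.8% of all genes) and Siglece and Cd300a lower (1.86%). Both this and the first comparison use the same 4 control mice.

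Within AppSAA mice, ATV:4D9 against ATV:ISO raised Lilrb4a and lowered Siglech, Cd33, Pirb, Cd300a, Cd22 and Lag3. The 7 called genes compare with 55.1% of all tested genes called (27.9% higher, 27.1% lower). Per cell, Siglece, Lilrb4a, Havcr2 and Ptpn6 were higher without overlap (50.5% of all genes) and Pirb was lower (2.57%). Set against 4D9, which shares the ATV:4D9 mice, the same 7 genes were called in the same directions (54.3% of all genes called, 27.6% higher and 26.7% lower), with log2 fold changes from -0.85 for Pirb to 0.62 for Lilrb4a. Per cell, Siglece, Lilrb4a and Ptpn6 were higher without overlap (42.9% of all genes) and 0 were lower without overlap (2.31%). Siglech, Pirb and Cd300a overlapped but were lower per cell in all 4 pools, which was not counted over all genes.

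4D9 without the transport domain was compared with ATV:ISO in AppSAA mice, and edgeR called 0 of 10 genes and 0 (0%) of all 14058. None of the 10 had an unadjusted p under 0.05 (smallest 0.174, for Pirb), as 79 of all genes did, and DESeq2 and limma-voom called none of the 10 either. Log2 fold changes ran from -0.14 for Pirb to 0.12 for Cd22.

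Under ATV:4D9, AppSAA mice differed from WT mice in 5 of the 10 genes, against 11.8% of all tested genes (7.84% higher, 3.98% lower). Lilrb4a, Lag3, Cd22 and Pirb were higher and Siglece was lower. In UMIs per cell Pirb, Cd22 and Lag3 were higher without overlap (4.95% of all genes) and Siglece lower (7.90%). The response to ATV:4D9 itself differed between genotypes for Lilrb4a and Pirb (2 of 10, against 9.14% of all genes, 3.79% higher and 5.35% lower). With the pool as a block, which the shared preparation of 1 mouse per group in each pool allows, 7 of 10 were called (against 30.5% of all genes), the added genes being Siglech, Siglece, Cd33, Cd300a and Lag3 (adjusted p = 0.00373, 0.0149, 0.000464, 0.000256 and 0.0041). Without the block, leaving out 1 mouse also brought calls: Lag3 without the WT ATV:4D9 mouse of pool 1 (0.0444), Siglece and Cd300a without the AppSAA ATV:ISO mouse of pool 1 (0.0315 and 0.0358), and Siglech and Cd33 without the AppSAA ATV:4D9 mouse of pool 1 (0.00535 and 0.0282). With all mice and no block, DESeq2 called Siglech (0.0439), and limma-trend with cells weighted equally called Lag3 (0.0464).

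**Figure D2:**
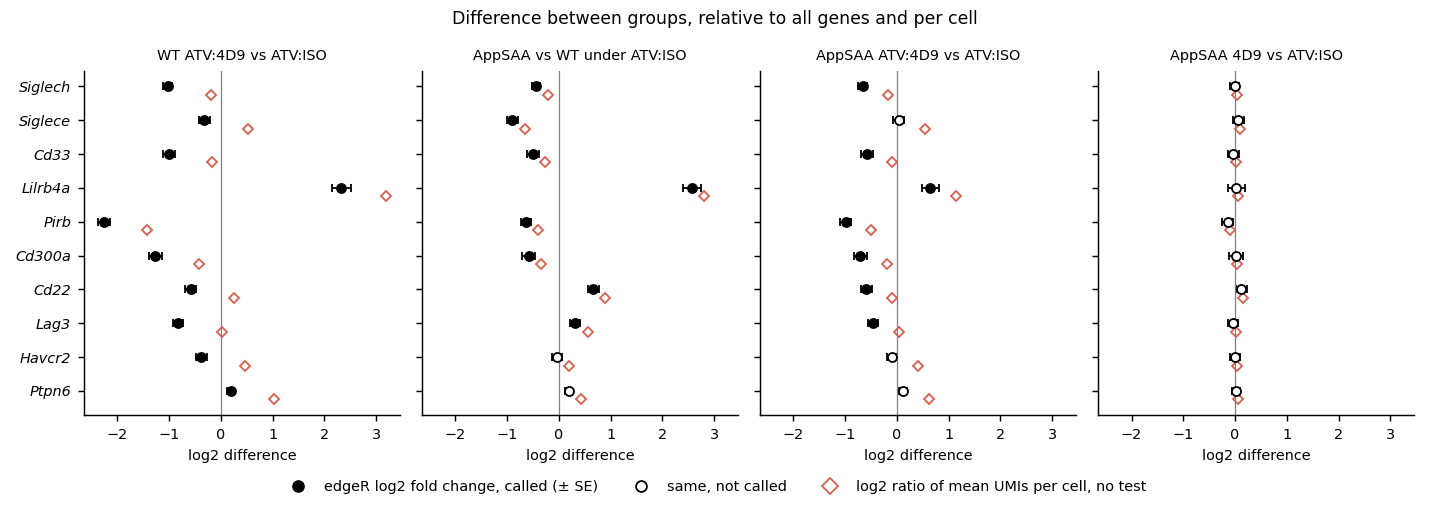
Differences between groups for the 10 genes in 4 comparisons, on a log2 axis. Black circles give the edgeR log2 fold change with its SE, filled where called, and red diamonds the log2 ratio of mean UMIs per cell, with no test. The diamonds lie to the right of the circles in the 2 comparisons of ATV:4D9 and in the genotype comparison, and in the 4D9 comparison all symbols lie near 0.

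Siglech, which encodes the DAP12-coupled Siglec-H, was measured at 1184, 1176, 1395 and 1449 CPM in WT mice given ATV:ISO. Mice of this genotype given ATV:4D9 had 519.7, 609.8, 596 and 628 CPM. The groups did not overlap, and the log2 fold change was -1.03 (SE 0.085, adjusted p = 2.37e-09). Per cell the level went from 11.3 ± 2.12 to 9.8996 ± 1.56 UMIs (mean ± SD, n = 4), so that these groups overlapped, although the ATV:4D9 mouse was the lower in all 4 pools. The AppSAA mice on ATV:ISO had 796, 736, 896 and 935 CPM, all below the WT mice given ATV:ISO, with a log2 fold change of -0.44 (SE 0.084, adjusted p = 0.000439). In AppSAA mice ATV:4D9 gave 379, 573, 511 and 569.9 CPM, lower than ATV:ISO with a log2 fold change of -0.66 (SE 0.085, adjusted p = 1.77e-06). Mice given 4D9 had 755 to 900.2 CPM, in the range of ATV:ISO.

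Siglece encodes Siglec-E, an ITIM receptor for sialic acids of myeloid cells. WT mice given ATV:ISO had 57.4, 56.1, 51.6 and 56.4 CPM and those given ATV:4D9 39.4, 42.7, 42.4 and 39.8 CPM, again without overlap and with a log2 fold change of -0.32 (SE 0.11, adjusted p = 0.0134). The direction turned per cell, where ATV:4D9 mice had 0.625 to 0.747 and ATV:ISO mice 0.449 to 0.534 UMIs. The call was lost without the filter on low counts (adjusted p = 0.0643) and without cells above 25000 UMIs (adjusted p = 0.0635). The genotypes differed as well. Under ATV:ISO, AppSAA mice had 31.5, 19.9, 26.4 and 27.02 CPM, a log2 fold change of -0.90 (SE 0.11, adjusted p = 2.45e-06), and the level was lower per cell too (0.225 to 0.3303 UMIs). Under ATV:4D9 the 2 genotypes also differed, with a log2 fold change of -0.55 (SE 0.11, adjusted p = 0.00135), the AppSAA mice having 25.7, 25.6, 23.5 and 27.1 CPM. A change under ATV:4D9 within AppSAA mice was not detected in its share of transcripts (log2 fold change 0.034, SE 0.11, adjusted p = 0.808), while per cell it was higher in all 4 pools, and with cells weighted equally it was called lower (-0.31, adjusted p = 0.00841). That weighting (limma-trend) also called Siglece lower with ATV:4D9 than with 4D9 (-0.35, adjusted p = 0.00382).

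Cd33 encodes the Siglec CD33, whose mouse form lacks the canonical ITIM of the human protein. Its levels were 304, 323, 408 and 419.9 CPM in WT mice given ATV:ISO and 132, 173, 188 and 177 CPM in those given ATV:4D9. No mouse of one group reached the other, and the log2 fold change was -1.01 (SE 0.11, adjusted p = 2.11e-07). In UMIs per cell the groups overlapped, at 2.38 to 3.98 and 2.097 to 3.32, although the ATV:4D9 mouse was the lower in all 4 pools. The AppSAA mice on ATV:ISO had 204, 188, 249 and 262 CPM, lower at a log2 fold change of -0.50 (SE 0.11, adjusted p = 0.00203). With ATV:4D9 the level fell further to 106, 146, 151 and 174 CPM (log2 fold change -0.58, SE 0.11, adjusted p = 0.000215), and the 2 genotypes under ATV:4D9 were not told apart (log2 fold change -0.081, SE 0.11, adjusted p = 0.773).

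Cd22 encodes the ITIM Siglec best known as a coreceptor of B cells. It was a low count, with 208 to 381 UMIs per mouse in WT mice given ATV:ISO, or 12.1, 14.2, 13.6 and 13.5 CPM. ATV:4D9 gave 8.62, 7.55, 9.14 and 7.49 CPM, lower at a log2 fold change of -0.58 (SE 0.11, adjusted p = 0.000107) and without overlap, while in UMIs per cell the groups overlapped with the mean higher under ATV:4D9. In contrast to Siglech, Siglece and Cd33, Cd22 was higher in AppSAA mice given ATV:ISO, at 18.3, 19.1, 19.8 and 17.1 CPM (log2 fold change 0.66, SE 0.11, adjusted p = 9.31e-05), in all 4 pools and on both scales. ATV:4D9 lowered it there to 9.62, 14.7, 11.9 and 11.001 CPM (log2 fold change -0.59, SE 0.10, adjusted p = 8.3e-05), and under ATV:4D9 it remained above the WT level, at a log2 fold change of 0.66 (SE 0.11, adjusted p = 0.000211).

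Lilrb4a encodes an ITIM receptor of the leukocyte immunoglobulin-like family. It was low in WT mice given ATV:ISO, at 7.75, 16.4, 13.4 and 12.7 CPM or 133 to 359 UMIs per mouse. ATV:4D9 brought it to 53.96, 44.9, 67.4 and 66.8 CPM, a log2 fold change of 2.33 (SE 0.18, adjusted p = 7.01e-10), which is 5.03-fold. Under ATV:ISO, AppSAA mice had 57.3, 70.9, 74.7 and 58.98 CPM, 5.93-fold higher than WT mice given ATV:ISO, with a log2 fold change of 2.57 (SE 0.18, adjusted p = 1.31e-09). All mice of both raised groups lay above all 4 control mice. ATV:4D9 in AppSAA mice gave 106, 79.5, 111 and 92.5 CPM, a smaller log2 fold change of 0.65 (SE 0.16, adjusted p = 0.00225), and the interaction of genotype and treatment was -1.68 (SE 0.24, adjusted p = 0.000134). The rise held per cell, where mean UMIs went from 0.109 ± 0.0331 to 0.991 ± 0.276 in WT and from 0.757 ± 0.132 to 1.67 ± 0.322 in AppSAA mice. The copy Lilr4b, with a mean of 3.98 CPM over all mice, was also called higher in the first 2 comparisons, with log2 fold changes of 1.34 (adjusted p = 0.000763) and 1.63 (adjusted p = 0.000413).

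Pirb encodes a paired immunoglobulin-like receptor with ITIMs that binds MHC class I. Its mouse values were 20.6, 21.2, 22.5 and 25.04 CPM in WT mice given ATV:ISO and 4.13, 4.73, 4.35 and 4.03 CPM in those given ATV:4D9. The groups were far apart, and the log2 fold change of -2.26 (SE 0.11, adjusted p = 5.17e-13) is 4.78-fold down. The fall was also seen per cell, from 0.193 ± 0.03305 to 0.07204 ± 0.00512 UMIs, without overlap. The AppSAA mice on ATV:ISO had 13.6, 10.7, 12.7 and 13.7 CPM (log2 fold change -0.63, SE 0.10, adjusted p = 8.29e-05 against WT), and ATV:4D9 lowered the level to 4.57, 6.94, 6.75 and 6.15 CPM (log2 fold change -0.99, SE 0.10, adjusted p = 1.14e-07). The fall was therefore smaller in AppSAA mice, with an interaction of 1.26 (SE 0.15, adjusted p = 2.13e-05).

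Cd300a encodes an ITIM receptor for phosphatidylserine and phosphatidylethanolamine. WT mice had 205, 211, 182 and 187 CPM with ATV:ISO and 77.5, 84.8, 74.1 and 66.1 CPM with ATV:4D9, a log2 fold change of -1.26 (SE 0.13, adjusted p = 7.63e-08). It was lower per cell as well, at 1.23 to 1.302 against 1.602 to 1.77 UMIs. Under ATV:ISO, AppSAA mice had 131, 113, 104 and 111 CPM (log2 fold change -0.59, SE 0.13, adjusted p = 0.00202) and those given ATV:4D9 58.9, 84.3, 63.8 and 62.96 CPM (log2 fold change -0.71, SE 0.13, adjusted p = 0.000142). The 2 genotypes given ATV:4D9 were not told apart in level (log2 fold change -0.028, SE 0.13, adjusted p = 0.95).

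Lag3, a checkpoint receptor of T cells that binds MHC class II, stood at 357, 344, 304 and 308 CPM in WT mice given ATV:ISO. With ATV:4D9 it was 186, 169, 168 and 162 CPM, lower without overlap and with a log2 fold change of -0.83 (SE 0.095, adjusted p = 2.7e-07), but the UMIs per cell overlapped at 2.69 to 2.92 and 2.52 to 3.04. The AppSAA mice on ATV:ISO had 376, 359, 339 and 363 CPM, which overlaps the WT range in CPM. The log2 fold change was 0.31 (SE 0.095, adjusted p = 0.0169), and the call was lost without the WT ATV:ISO mice of pool 3 (adjusted p = 0.0645) or 4 (0.0622), the AppSAA ATV:ISO mouse of pool 1 (0.0543), or with cells weighted equally (0.0523). ATV:4D9 in AppSAA mice gave 219, 281, 254 and 241 CPM (log2 fold change -0.47, SE 0.094, adjusted p = 0.000336). Between genotypes under ATV:4D9 Lag3 was higher in AppSAA mice (log2 fold change 0.67, SE 0.095, adjusted p = 4.62e-05), on both scales and without overlap.

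Havcr2 encodes TIM-3, a checkpoint receptor that binds phosphatidylserine and galectin-9. It had 192, 215, 212 and 201 CPM in WT mice given ATV:ISO and 134, 168, 146 and 136 CPM in those given ATV:4D9, a log2 fold change of -0.38 (SE 0.099, adjusted p = 0.00255). Per cell the direction was the opposite, 1.503 to 1.905 against 2.12 to 2.57 UMIs. Havcr2 was called in none of the other comparisons by edgeR without a block. Weighting cells equally (limma-trend) called it lower with ATV:4D9 in AppSAA mice, against ATV:ISO (adjusted p = 0.0219) and against 4D9 (0.0344). Plain CPM in AppSAA mice given ATV:ISO (169 to 182) lay below all WT mice given ATV:ISO, but scaled by TMM the log2 fold change was -0.032 (SE 0.099, adjusted p = 0.852), since the TMM scale moves the median gene by 0.19 against plain CPM here (0.11 in the first comparison and 0.14 between genotypes under ATV:4D9). With the pool as a block it was called higher in AppSAA than in WT mice under ATV:4D9 (adjusted p = 0.0229 with and 0.12 without it, 31.4% of all genes being called with it).

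Ptpn6, the shared phosphatase, was the least variable of the 10 over the mice. Its values were 242, 200.4, 215 and 228 CPM with ATV:ISO and 226, 238, 236 and 233 CPM with ATV:4D9 in WT mice, with overlap. The log2 fold change of 0.19 (SE 0.073, adjusted p = 0.0313) was called, but the call was lost with cells weighted equally (adjusted p = 0.0782), without the ATV:ISO mouse of pool 2 (0.101), 3 (0.0972) or 4 (0.057), or without the ATV:4D9 mouse of pool 1 (0.0731). In AppSAA mice given ATV:ISO it was 226, 209, 226 and 228 CPM and not called (log2 fold change 0.19, SE 0.073, adjusted p = 0.0593). With the pool as a block it was called there (adjusted p = 0.00245, against 51% of all genes) and under ATV:4D9 in AppSAA mice (0.0385, against 70.7%), and without the WT ATV:ISO mouse of pool 1 the genotype difference was called too (0.00684). DESeq2 (0.0126), RLE scaling (0.0362), no filter (0.0381) and leaving out cells above 25000 UMIs (0.0443) called it as well. Over all 15 alternatives its log2 fold change ran from 0.063 to 0.27, with adjusted p up to 0.397. Mean plain CPM was nearly equal, 222.5 in AppSAA and 221.5 in WT mice given ATV:ISO (log2 ratio 0.0063). The TMM scale moves the median gene by 0.19 in this comparison. UMIs per cell rose 2.05-fold without overlap, from 1.91 ± 0.203 to 3.91 ± 0.408 in WT mice.

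The other genes of the system were counted from lists chosen with earlier results of these data known, and single values in parentheses are log2 fold changes (edgeR). Of 33 further genes listed as inhibitory receptors or their relatives, 27 were tested, and 11 rose and 11 fell under ATV:4D9 in WT mice (30.8% and 32.5% of all tested genes). The list also holds the ligand Cd274, and its member Ceacam1 was counted among the ligands below as well. In the genotype comparison under ATV:ISO 13 rose and 6 fell (14.4% and 13.7% of all genes), and under ATV:4D9 in AppSAA mice 8 rose and 13 fell (27.9% and 27.1%). Among those with a mean of at least 10 CPM and no overlap between groups, which leaves out Lilr4b, the largest changes of the first comparison were those of Cd72, a C-type lectin with an ITIM (2.38, adjusted p = 3.49e-09), Pdcd1, the checkpoint receptor PD-1 (2.17, adjusted p = 5.37e-09), and Ceacam1, an ITIM adhesion receptor (-1.95, adjusted p = 1.45e-10). In the genotype comparison they were Pdcd1 (2.51, adjusted p = 4.59e-09), its ligand Cd274 (1.46, adjusted p = 2.89e-08) and Cd300lf, an ITIM relative of Cd300a (1.41, adjusted p = 3.4e-05). Under ATV:4D9 in AppSAA mice they were Cd72 (2.52, adjusted p = 1.91e-09), Cd300lf (1.37, adjusted p = 3.93e-06) and Siglecf, another Siglec. Siglecf was higher in AppSAA mice given ATV:ISO (1.23, adjusted p = 7.73e-09) and lower after ATV:4D9 in both genotypes (-0.61, adjusted p = 1.78e-05 in WT, and -1.21, adjusted p = 1.78e-09 in AppSAA mice).

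Downstream of the receptors, 18 phosphatases and negative adaptors were tested, of which 2 rose and 11 fell in the first comparison, 3 rose and 5 fell in the second, and 3 rose and 9 fell in the third, where 30.8% and 32.5%, 14.4% and 13.7%, and 27.9% and 27.1% of all genes rose and fell. Inpp5d and Tyrobp were picked after their values were seen. Inpp5d, the inositol phosphatase SHIP1 that also docks on ITIMs, fell in all 3 (-0.58, adjusted p = 0.000582, then -0.37, adjusted p = 0.0352, then -0.35, adjusted p = 0.0257). Dok3, an adaptor that dampens DAP12 and Fc receptor signals, fell by 1.21, 0.94 and 0.79 on the log2 scale. Of 19 tested genes of the opposing ITAM pathway, 4 rose and 5 fell in the first comparison, 6 and 7 in the second and 5 and 7 in the third, while 63.3%, 28.2% and 55.1% of all genes were called. Tyrobp, which encodes DAP12, was higher in AppSAA than in WT mice under ATV:ISO (1.06, adjusted p = 7.15e-07). With ATV:4D9 it fell in AppSAA mice (-0.50, adjusted p = 0.00101), and in WT mice it was not called (0.0077, adjusted p = 0.958).

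Genes that make or cut the Siglec ligands moved in both directions, with 24 of 31 listed genes tested. In the first comparison 6 rose and 10 fell, in the second 2 and 2, and in the third 7 and 10, beside the same 63.3%, 28.2% and 55.1% of all genes called. St6gal1, which adds the sialic acid linkage that CD22 binds, fell under ATV:4D9 in WT (-1.37, adjusted p = 6.46e-07) and AppSAA mice (-1.32, adjusted p = 1.25e-06). In UMIs per cell its groups overlapped in WT mice, and it was lower without overlap in AppSAA mice (2.57% of all genes). St8sia6, a sialyltransferase whose products mouse Siglec-E binds, was higher in AppSAA than in WT mice under ATV:ISO (1.83, adjusted p = 9.22e-08). Of 17 tested genes for protein ligands of the checkpoint and immunoglobulin-like receptors, 6 rose and 3 fell (30.8% and 32.5% of all genes), then 12 and 2 (14.4% and 13.7%), then 6 and 7 (27.9% and 27.1%). The MHC class II genes H2-Aa and H2-Ab1, ligands of LAG-3, rose in the second comparison by 2.98 (adjusted p = 4.95e-06) and 2.62 (adjusted p = 1.4e-06) on the log2 scale, and Fgl2, whose product binds the Fc receptor FcγRIIB, rose by 1.49 (adjusted p = 6.33e-08) in the third. H2-Aa and H2-Ab1 varied widely between AppSAA mice given ATV:ISO, at 221 ± 157 and 232 ± 143 CPM (mean ± SD). WT mice given ATV:ISO had 31.6 ± 10.8 and 42.4 ± 10.7 CPM.

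The deposited annotation splits the cells into 6 clusters, numbered 0 to 5. Levels between clusters are given without a test, because the genes helped to define them. In WT mice cluster 0 held 57.2 to 63.5% of cells with ATV:ISO and 2.02 to 4.40% with ATV:4D9. Clusters 2 and 4 together took most cells under ATV:4D9, cluster 4 rising from 0.243 to 0.435% up to 36.3 to 45.7%. In AppSAA mice given ATV:ISO, cluster 1 held 33.5 to 44.6% of cells, against 0.815 to 2.52% in WT mice given ATV:ISO.

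In cluster 0, Siglech had a median of 1312 CPM (1133 to 1666) over 20 mice, and in clusters 1, 2 and 4 it had 566, 602 and 568 CPM. In CPM, a share of transcripts, each mouse with enough cells had less Siglech and Cd33 in clusters 1 to 5 than in its own cluster 0, but per cell this did not hold in every mouse. In UMIs per cell, Siglech was lower than in the same mouse's cluster 0 in 14 of 16, 14 of 20, 6 of 20, 4 of 16 and 11 of 17 mice in clusters 1 to 5. Cd33 was lower per cell in 15 of 16, 9 of 20, 5 of 20, 7 of 16 and 13 of 17. The medians over the mice of each cluster, which are not the same mice, ran from 8.31 to 10.8 UMIs for Siglech and from 1.95 to 2.84 for Cd33. The shares of Cd300a and Havcr2 were also lower in all such mice in clusters 1 to 5, with medians of Cd300a from 181 CPM in cluster 0 to 54.9 in cluster 4. Havcr2 turned per cell, where it was higher than in cluster 0 in 14 of 16, 19 of 20, 19 of 20, 16 of 16 and 12 of 17 mice in clusters 1 to 5, at medians of 1.68 UMIs in cluster 0 and 1.86 to 2.88 in the others. Cd300a was lower per cell in 13 of 16, 4 of 20, 4 of 20, 12 of 16 and 12 of 17 mice. In cluster 1 Siglece was below the same mouse's cluster 0 in 16 of 16 mice, with a median of 7.303 CPM (4.903 to 24.8) against 55.1 CPM (36.03 to 72.4) in cluster 0, and had 31.5 CPM in cluster 2. Per cell Siglece was likewise lower in cluster 1 in 16 of 16 mice, at 0.111 against 0.4201 UMIs, but higher in cluster 2 in 17 of 20.

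Lilrb4a was low in clusters 0 and 3, with medians of 6.99 and 10.8 CPM, and had 101, 115, 67.6 and 81.2 CPM in clusters 1, 2, 4 and 5. In mice with UMIs in both clusters the median log2 ratio of cluster 1 to cluster 0 was 3.98. Cd22 had medians of 24.1 CPM in cluster 1, 17.4 in cluster 5, 7.63 in cluster 4 and 11.97 in cluster 0. It was above the same mouse's cluster 0 in 16 of 16 mice in cluster 1 and in 16 of 17 in cluster 5, and below it in 14 of 16 in cluster 4, while per cell Cd22 was higher than in cluster 0 in every mouse and cluster, with medians of 0.0854 UMIs in cluster 0 and 0.159 in cluster 4. Lilrb4a was higher per cell in every mouse and cluster too, from 0.0523 UMIs in cluster 0 up to 1.62 in cluster 2. Pirb fell from 19.3 CPM in cluster 0 to 2.84 in cluster 4, a low count in which some mice had 0 UMIs, and was lower per cell in 13 of 16 mice. The share of Lag3 in cluster 4 was below cluster 0 in 16 of 16 mice (167 CPM, against 376 in cluster 0), while per cell it was higher in 13 of 16, at 3.39 against 2.87 UMIs. Ptpn6 medians lay between 203 and 258 CPM in all clusters. Per cell it ranged from 1.82 UMIs in cluster 0 to 4.54 in cluster 4 and was higher than in cluster 0 in every mouse and cluster.

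**Figure D3:**
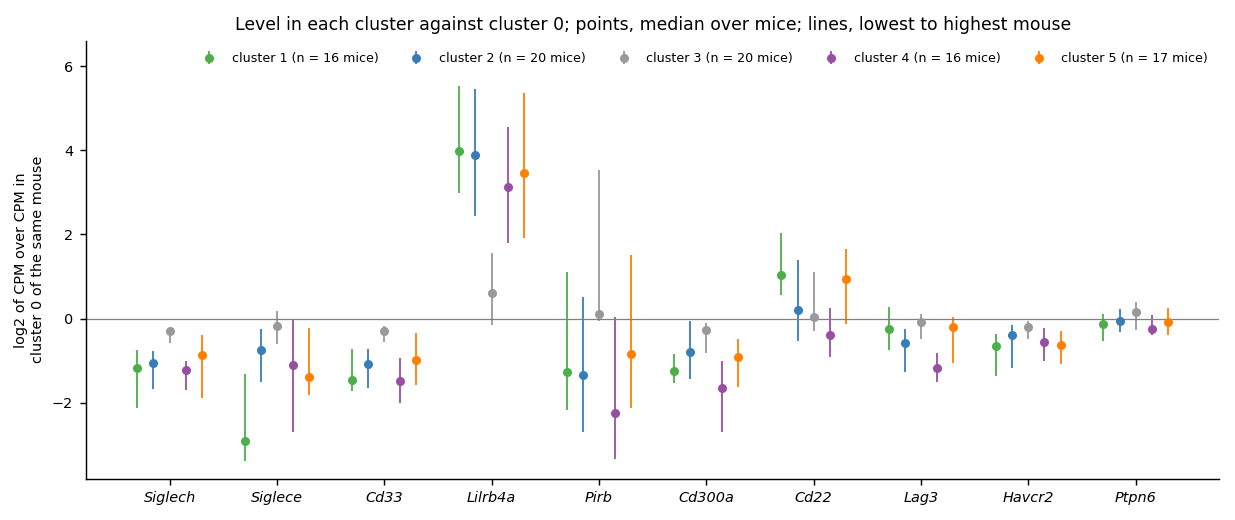
Level of the 10 genes in clusters 1 to 5 against cluster 0 of the same mouse, as log2 ratio of CPM. Points give the median over mice, lines the lowest to the highest mouse, and mice with 0 UMIs in either cluster are left out. The medians of Lilrb4a lie above 0 in all 5 clusters (0.61 in cluster 3), those of Cd22 most clearly in clusters 1 and 5 (1.04 and 0.93), and Siglech and Cd33 lie below 0 in all 5, a share of transcripts that in UMIs per cell was lower in only part of the mice.

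The groups were also compared inside clusters, with UMIs added up for each mouse within a cluster where it had 20 cells or more. Membership in a cluster was set by the authors from the same expression values. Of 300 tests of members over 30 pairs of cluster and comparison, 37 were called, 14 higher and 23 lower, while 5.06% of all gene tests in these 30 pairs were called, 2.92% higher and 2.13% lower. Of the 37, 17 stayed called whichever single pool was left out. With the pool as a block 71 were called, the 37 and 34 more, all of which are named below, and the share of all gene tests called rose to 9.67%. Cluster 0 held 1 call in 60 member tests over 6 comparisons, whose joint share of all genes called was not computed. It was Ptpn6 under ATV:4D9 in WT mice (log2 fold change 0.38, SE 0.099, adjusted p = 0.0477, against 1.47% of all genes called in that comparison). This call was lost when any pool was left out (adjusted p up to 0.318) and without the filter on low counts (0.0968). The ATV:4D9 groups had as few as 37 cells per mouse there. With the pool as a block, Cd33 (-0.24, adjusted p = 0.00156), Pirb (-0.81, 0.00588), Cd300a (-0.40, 0.000181) and Cd22 (-0.80, 0.0296) were called lower in cluster 0 under ATV:4D9 in WT mice (8.96% of all genes called with the block). Pirb was also called there without the filter (0.0305) and with at least 50 cells (0.037). These falls rest on low counts, since WT mice given ATV:4D9 had 60 to 186 cells of cluster 0. Their sums held as few as 3 UMIs of Pirb and 3 of Cd22 per mouse. Lag3 was called higher in AppSAA than in WT mice in cluster 0 with the block, under ATV:ISO (0.30, adjusted p = 0.000351, against 4.61% of all genes) and under ATV:4D9 (0.47, adjusted p = 0.00104, against 1.86%), the latter also without the block when pool 1 was left out (0.65, 0.0111).

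Cluster 5 held 14 of the 37 calls in 40 tests over 4 comparisons, whose joint share of all genes called was not computed. ATV:4D9 against ATV:ISO in AppSAA mice called 6 of 10 genes there (29.7% of all genes called). AppSAA mice had 46 to 233 cells of this cluster with ATV:ISO and 37 to 62 with 4D9, against 690 to 1071 with ATV:4D9. With ATV:ISO and 4D9, Lilrb4a rested on as few as 15 and 14 UMIs per mouse and Cd22 on as few as 8 and 10. Lilrb4a had 31.8, 64.1, 81.2 and 36.8 CPM with ATV:ISO and 153, 111, 134 and 119 CPM with ATV:4D9, without overlap and with a log2 fold change of 1.27 (SE 0.22, adjusted p = 0.000144). Siglech (log2 fold change -0.67, SE 0.11, adjusted p = 5.63e-05), Cd33 (log2 fold change -0.71, SE 0.14, adjusted p = 0.000612) and Cd300a (log2 fold change -0.63, SE 0.15, adjusted p = 0.00218) were lower in the same cluster and comparison, and each stayed called whichever pool was left out. Those of Cd22 and Lag3 were lost whichever pool was left out (adjusted p up to 0.157 and 0.168). In UMIs per cell, Lilrb4a was higher without overlap (1.72 to 2.62 against 0.326 to 1.06), while Siglech, Cd33, Cd300a, Cd22 and Lag3 overlapped. Lag3 in cluster 5 was higher in AppSAA than in WT mice under ATV:4D9 (log2 fold change 0.81, SE 0.11, adjusted p = 2.7e-05, against 6.87% of all genes called). In that comparison Pirb (log2 fold change 1.06, SE 0.28, adjusted p = 0.0198) and Siglece (log2 fold change -0.50, SE 0.15, adjusted p = 0.0406) were called too, Pirb being lost without pool 3 or 4 (up to 0.156) and Siglece without pool 2, 3 or 4 (up to 0.252). Against 4D9, which shares the ATV:4D9 mice, 5 of 10 genes were called in cluster 5 (16.3% of all genes called), with Lilrb4a higher (log2 fold change 1.31, SE 0.25, adjusted p = 0.000794) and Siglech, Cd33, Cd300a and Cd22 lower, of which Cd22 was lost without pool 3 (adjusted p = 0.115).

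In cluster 4 of AppSAA mice, Siglece was higher with ATV:4D9. AppSAA mice had 15.96, 13.3, 18.7 and 14.7 CPM with ATV:ISO, 9.74, 16.7, 9.33 and 18.5 with 4D9 and 32.9, 33.4, 33.5 and 35.7 with ATV:4D9. Every AppSAA mouse given ATV:4D9 was above every mouse given the other antibodies, in UMIs per cell as well. The log2 fold changes were 1.07 (SE 0.16, adjusted p = 2.84e-05) against ATV:ISO and 1.25 (SE 0.17, adjusted p = 9.14e-06) against 4D9, where 24.5% and 22.1% of all genes were called. The cells of cluster 4 were few without ATV:4D9, with 26 to 74 cells and 4 to 34 UMIs of Siglece per mouse. Siglech was lower there with ATV:4D9 (log2 fold change -0.43, SE 0.098, adjusted p = 0.00241). Havcr2 was called higher against ATV:ISO (log2 fold change 0.38, SE 0.11, adjusted p = 0.0162), but not without pool 1, 3 or 4 (up to 0.0757). Lilrb4a in cluster 4 was higher in AppSAA than in WT mice under ATV:4D9 (log2 fold change 0.84, SE 0.15, adjusted p = 0.00133, against 2.76% of all genes called), and stayed called whichever pool was left out.

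In cluster 2, Cd300a was lower under ATV:4D9 in WT mice (log2 fold change -0.94, SE 0.18, adjusted p = 0.00237), as was Cd22 (log2 fold change -1.42, SE 0.29, adjusted p = 0.00348), where 5.88% of all genes were called and both stayed called whichever pool was left out. WT mice given ATV:ISO had few cells there, 23 to 42 per mouse against 1339 to 2186 with ATV:4D9. Their sums held as few as 7 UMIs of Cd22 and 42 of Cd300a. Lag3 was the third call there (log2 fold change -0.47, SE 0.12, adjusted p = 0.0156) and was lost without pool 1, 2 or 3 (up to 0.151). In AppSAA mice ATV:4D9 lowered Cd300a in cluster 2 against 4D9 (log2 fold change -0.74, SE 0.16, adjusted p = 0.00386, against 13.4% of all genes called) and against ATV:ISO (log2 fold change -0.53, SE 0.16, adjusted p = 0.0323, against 13.2%), the second call being lost without pool 1, 3 or 4 (up to 0.166). Lag3 was lower in both (lost without pool 3, adjusted p = 0.0671 and 0.114), Siglech was lower against 4D9 (lost without pool 1, 3 or 4, up to 0.155), and Lilrb4a was higher in AppSAA than in WT mice under ATV:4D9 (2.07% of all genes called, lost without pool 1 or 3, up to 0.14). In cluster 3, Cd300a (log2 fold change -0.66, SE 0.13, adjusted p = 0.00208) and Pirb (log2 fold change -0.61, SE 0.18, adjusted p = 0.0378) were lower and Ptpn6 (log2 fold change 0.36, SE 0.084, adjusted p = 0.00954) higher under ATV:4D9 in WT mice (6.17% of all genes called), but each was lost without at least 1 pool (Cd300a without pool 2, adjusted p = 0.0667, Pirb without any of the 4, up to 0.197, and Ptpn6 without pool 2, 3 or 4, up to 0.147). Lag3 was higher in AppSAA than in WT mice under ATV:4D9 in cluster 3 (log2 fold change 0.61, SE 0.10, adjusted p = 0.0115, against 0.163% of all genes called), and was lost without pool 2, 3 or 4 (up to 0.192). In cluster 1, Pirb (log2 fold change 0.92, SE 0.19, adjusted p = 0.00975) and Lag3 (log2 fold change 0.40, SE 0.092, adjusted p = 0.0275) were higher with ATV:4D9 than with 4D9 in AppSAA mice, where both were lower over all cells (1.76% of all genes called in the cluster). Pirb in cluster 1 was lower in AppSAA than in WT mice under ATV:ISO (log2 fold change -1.85, SE 0.33, adjusted p = 0.0052, against 1.21% of all genes called), a fit with 3 WT mice. These 3 mice had 27 to 62 cells of cluster 1 and as few as 7 UMIs of Pirb, against 1160 to 2269 cells in AppSAA mice. All 3 calls were lost without at least 1 pool (Lag3 without any 1 of the 4, adjusted p up to 0.194, and without the filter on low counts, 0.0532, Pirb between antibodies without pool 1 or 3, up to 0.152, and Pirb between genotypes without pool 2, 0.326).

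The pool block added calls in clusters 1 to 5 as well, given with the share of all genes called with the block. Lilrb4a was higher with ATV:4D9 in cluster 3 in every comparison of it, in WT mice (1.06, adjusted p = 0.0011) and in AppSAA mice against ATV:ISO (1.10, adjusted p = 0.00021) and 4D9 (1.14, adjusted p = 0.000228), where 17.5%, 12.6% and 11.2% of all genes were called. The groups overlapped, at 5.72 to 10.2 CPM with ATV:ISO and 6.84 to 23.7 with ATV:4D9 in WT mice. AppSAA mice had 5.12 to 14.6 CPM with ATV:ISO, 6.96 to 13.4 with 4D9 and 7.76 to 31.9 with ATV:4D9. With ATV:4D9, Lilrb4a rested on as few as 14 UMIs per mouse in WT and 11 in AppSAA mice. In the same cluster of WT mice Siglech (-0.18, adjusted p = 0.0195), Cd33 (-0.33, 2.4e-05) and Lag3 (-0.30, 0.00373) were lower with ATV:4D9. In AppSAA mice Cd33 (-0.24, adjusted p = 0.00227), Cd300a (-0.28, 0.0233) and Havcr2 (-0.26, 0.0165) were lower there against ATV:ISO, and Cd33 (-0.20, adjusted p = 0.0122), Cd300a (-0.27, 0.0306) and Havcr2 (-0.24, 0.0322) against 4D9, the ATV:4D9 mice being the same. Between genotypes under ATV:ISO, Siglece (-0.21, adjusted p = 0.0463) was lower and Lag3 (0.25, adjusted p = 0.0302) higher in cluster 3 (1.64%). In cluster 1 the 3 genes Pirb (0.62, adjusted p = 0.0237), Cd300a (0.22, 0.0242) and Lag3 (0.35, 0.0014) were higher with ATV:4D9 than with ATV:ISO in AppSAA mice (7.77%), and Siglece (-1.25, adjusted p = 0.0226), Cd33 (-0.47, 0.0145) and Cd300a (-0.48, 0.0304) were lower in AppSAA than in WT mice under ATV:ISO (2.68%). The genotype fit there had 3 WT mice, whose sums held as few as 6 UMIs of Siglece and 38 of Cd300a. In cluster 2, Siglech (-0.34, adjusted p = 0.0122) was lower with ATV:4D9 than with ATV:ISO in AppSAA mice (24.8%), and under ATV:4D9 Siglece (-0.33, adjusted p = 0.00169) was lower and Lag3 (0.34, adjusted p = 0.000876) higher in AppSAA than in WT mice (7.38%). In cluster 4 under ATV:4D9, Siglech (-0.23, adjusted p = 0.0369) and Siglece (-0.29, 0.00336) were lower and Havcr2 (0.25, adjusted p = 0.0384) higher in AppSAA than in WT mice (9.79%). In cluster 5 of AppSAA mice, ATV:4D9 lowered Pirb (-0.66, adjusted p = 0.035) against ATV:ISO (37.2%) and Siglece (-0.61, adjusted p = 0.0237) against 4D9 (23.1%).

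**Figure D4:**
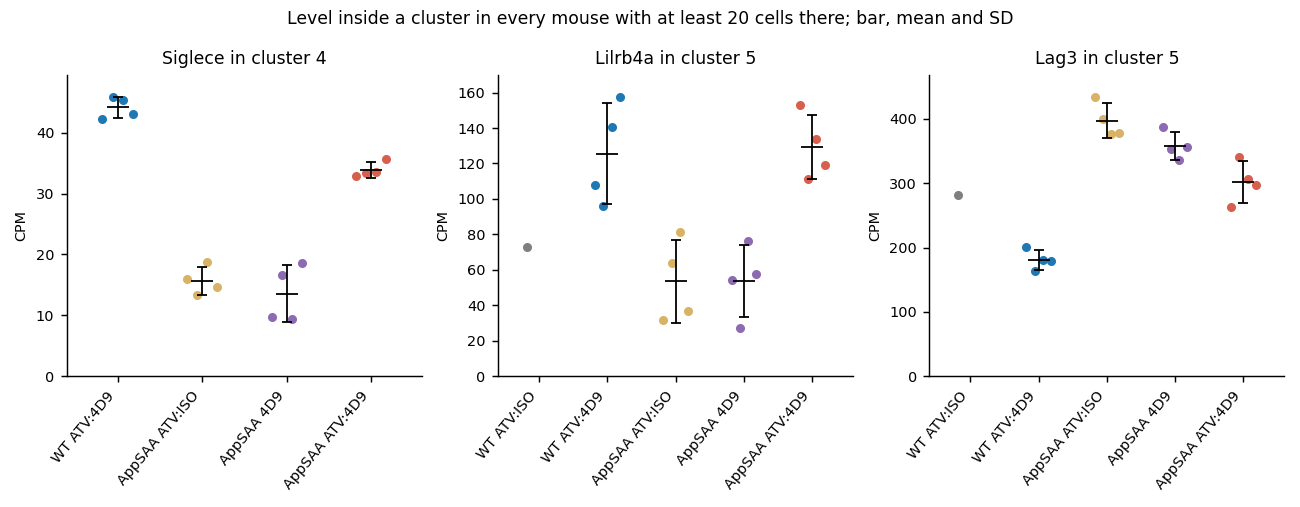
CPM of Siglece in cluster 4 and of Lilrb4a and Lag3 in cluster 5, in every mouse with at least 20 cells of the cluster. Points are mice, and bars give mean and SD of the group. Siglece with ATV:4D9 in AppSAA mice lies above both other AppSAA groups, and Lilrb4a is higher with ATV:4D9 than with ATV:ISO in AppSAA mice in cluster 5.

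Genes with the most similar profile over the 20 mice were found by the root mean square difference of centered log2 CPM, among 8028 genes with a mean of at least 10 CPM. For Siglech they were Fli1, Pip4k2a and Foxp1, with differences of 0.0719 to 0.0788 beside a spread of 0.498 for Siglech itself. Those of Cd33 were Soga1, Fli1 and Rreb1 (0.0549 to 0.0579, own spread 0.504). Cd300a was nearest to Hnmt, Hpgd and Letm2 (0.109 to 0.114, own spread 0.565), Lag3 to Ppfia4, Smim14 and Surf1 (0.0966 to 0.134, own spread 0.414), and Pirb to 4833411C07Rik, Fmo5 and Cyp27a1 (0.167 to 0.204, own spread 0.846). Siglece was nearest to Serpinf1, Ssbp3 and Lrba (0.127 to 0.146, own spread 0.464), Cd22 to Smpdl3a, Cox7a2l and Pde8b (0.126 to 0.158, own spread 0.486), and Havcr2 to Snx4, Tlk2 and Rab21 (0.109 to 0.118, own spread 0.205). Lilrb4a had no close match, since Fxyd5, Psat1 and Bcl2a1d differed from it by 0.379 to 0.408 beside a spread of 1.06. The spread of Ptpn6 (0.068) was about as large as its distance to Fam207a, Rbck1 and Capzb (0.0651 to 0.0697), so likeness says little for it.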

How the data were processed

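Brain myeloid cells of 20 mice were profiled by droplet RNA sequencing in 4 pools, each holding 1 tagged mouse of every group. The authors aligned reads with Cell Ranger 6.1.1 to mm10 and deposited raw UMI counts per gene and cell with an annotation that gives mouse, group and cluster. How cells and genes were filtered and how doublets were treated is not given in the sources used here, and no doublet caller was run. The members and gene lists were chosen with earlier results of these data known.

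UMIs of a mouse were added up over all its cells and, where 20 cells or more were present, inside each cluster, and groups with at least 3 such mice were fitted. After filterByExpr and TMM scaling, edgeR 4.0.16 (R 4.3.3) fitted its quasi-likelihood test to all 5 groups together, with Benjamini-Hochberg adjustment over all genes and calls at 0.05. The SE is the log2 fold change divided by the root of F. CPM and UMIs per cell are unmodelled. DESeq2 1.42.0, limma 3.58.1 (voom and trend), RLE scaling, no filter, a pool block, leaving out mice, pools or cells above 25000 UMIs, and 50 cells as the minimum were alternatives. Scripts were tested on simulated data. With 7820.5 to 18783.1 UMIs per cell on average, low members such as Pirb and Cd22 rest on few counts per cluster.

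Pools pair the mice because each was prepared together. Deviations from group means correlated at 0.143 to 0.607 within pools (40 pairs) and -0.514 to 0.249 between pools (120 pairs). The gap between them is partly built in. Deviations within a group cancel out, so positive correlations within pools bring negative ones between pools on average. Named genes were all 10 members, from each list the 3 largest called changes with a mean of at least 10 CPM and no overlap in the first 3 comparisons (any gene of the inhibitory list), and the 3 nearest genes per member. Inpp5d, Tyrobp and, as the copy of Lilrb4a, its neighbor Lilr4b (in the inhibitory list) are named besides, the first 2 after their values were seen. Genes at or above a mean of 10 CPM entered the nearest-gene search, with a prior count of 2.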

Additional observations from a re-analysis of the deposited data

Results flagged for a closer look

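Ptpn6 in AppSAA mice given ATV:ISO had a lowest mouse at 209.182 CPM, whose gap to the nearest mouse was 0.8875 of the group's range, above Dixon's 95% critical value for 4 values. It was 1 of 50 groups examined, and chance flags about 1 in 20.

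The response to ATV:4D9 differed between genotypes for Lilrb4a, whose log2 fold change was smaller in AppSAA than in WT mice by an interaction of -1.68 (edgeR, adjusted p = 0.000134), and for Pirb, whose fall was smaller in AppSAA mice by 1.26 (adjusted p = 2.13e-05).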

How the results depend on the processing

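Of 1130 values recomputed over all cells, 1095 stayed on the same side of the threshold without a called value changing sign, 23 passed it only under the alternative, 11 fell short of it and 1 reversed. The reversed value was Siglece under ATV:4D9 in AppSAA mice with cells weighted equally (limma-trend, -0.31 against 0.034). Within clusters, 2473 of 2590 did so, 57 passed it only under the alternative and 60 fell short. Among the 1095 and 2473 together, 170 values changed sign but were called under neither setting. The cause was not tested.

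With the pool as a replicate block, 7 members were called in the interaction against 2, and leaving out 1 mouse gave 2 to 4. Within clusters the block gave 71 calls against 37, while the share of all gene tests called went from 5.06 to 9.67%, and leaving out 1 pool gave 19 to 30. Beyond these and the named gains of Ptpn6 and Havcr2, the block changed no call over all cells. RLE scaling gave 36 calls within clusters, no filter 37 and limma-voom 42. With at least 50 cells, 19 of 30 pairs of cluster and comparison could be fitted, with 27 calls, fewer sums being left. For these settings and for leaving out 1 pool, the share of all gene tests called was not computed. Clusters with few cells limit precision, since Siglece rested on as few as 4 UMIs in cluster 4.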
